A study of Mus musculus with 120 samples.

Results

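The 33 genes described here make, sense and move cholesterol, and they were chosen by name from the 49466 genes kept in the deposited tables of the mouse brain. By role, 8 of them carry out the mevalonate and isoprenoid steps and 12 the steps from the making of squalene to cholesterol. Another 6 sense sterols and control transcription, and 7 transport, store or remove cholesterol. All 33 passed the filter on low values in all 35 comparisons. The libraries came from cortex, thalamus and hypothalamus of C57BL/6J mice injected behind the eye with adeno-associated virus 3 weeks before dissection, with 4 biological replicates in each of 30 groups. Sleepy mice carry the Sik3E13∆/+ allele, which removes an exon of the kinase gene Sik3. Their viruses carried HDAC4CA, with libraries at zeitgeber time (ZT) 12.5 and ZT0.5, CREB, with libraries at ZT12.5, or the eGFP control, with libraries at both times. ZT counts hours from lights on and is each library's time of day, not that of injection. Wild-type (WT) mice carried HDAC4CA, CREB or the mCherry control, with libraries at ZT12.5, or eGFP, with libraries at ZT12.5 and ZT0.5. Every mouse, controls included, therefore carried a virus and an added protein. HDAC4 is a class IIa histone deacetylase that represses transcription and CREB is a cAMP-responsive activator. The alteration in HDAC4CA, the promoter and cell types that drove the transgenes and the age of the mice are not given in the sources used here. The study concerned a kinase pathway that sets the amount of sleep through transcription.

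Cells build cholesterol from acetyl-CoA through mevalonate, isoprenoids, squalene and lanosterol. When sterols run low, SCAP escorts the factor SREBP2, the product of Srebf2, from the endoplasmic reticulum to the Golgi, where it is cut free to switch on most of these enzymes and its own gene; the INSIG proteins hold SCAP back when sterols are plentiful. SREBP1, from Srebf1, mainly drives fatty acid synthesis, and the liver X receptors, among them the product of Nr1h2, switch on cholesterol export. The brain makes its own cholesterol because the blood-brain barrier keeps plasma lipoproteins out, astrocytes and oligodendrocytes make much of it, and neurons clear the excess with the hydroxylase CYP46A1.

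Levels are given as deposited, in RPKM for WT mice with mCherry, HDAC4CA or CREB and in FPKM for all other mice, and were compared only within a unit. Both units divide reads by gene length and library size. Library sizes recovered from the values ran from 13.52 M to 28.16 M reads. A difference is the log2 ratio of the first group to the second after rescaling the libraries, and a gene was called where its limma p, adjusted over all genes tested, was under 0.05. The delivered genes checked the labels in all 3 regions: Hdac4 was at 4.38 to 11.1 FPKM in Sleepy HDAC4CA mice, against 2.37 to 3.33 FPKM in Sleepy eGFP mice, and at 4.89 to 7.59 RPKM in WT HDAC4CA mice, against 2.53 to 3.84 RPKM in WT mCherry mice. Creb1 was at 5.73 to 18.9 FPKM in Sleepy CREB mice, against 2.05 to 3.07 FPKM in Sleepy eGFP mice at ZT12.5, and at 4.83 to 13.4 RPKM in WT CREB mice, against 3.18 to 3.99 RPKM in WT mCherry mice. Sik3 was at 6.90 to 13.4 FPKM in Sleepy eGFP mice and 7.34 to 14.4 FPKM in WT eGFP mice, and a level over the whole gene does not show the loss of 1 exon. In WT cortex with mCherry, HDAC4CA or CREB, replicates 1 to 3 stood apart from replicate 4. Gapdh was at 51.4 to 59.7 RPKM in the first 3 and 5.85 to 6.47 RPKM in replicate 4. The WT thalamus and hypothalamus libraries with these vectors were all near the level of replicate 4, with Gapdh at 4.79 to 7.18 RPKM. Choroid plexus markers were detected in all 3 regions, at widely different levels between libraries. In bulk tissue, fewer cells of a type and less RNA per cell cannot be told apart, and p-values measure only the spread between the samples that the labels call replicates.

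The question asked of HDAC4CA in Sleepy mice was which transcripts change when it is delivered in place of eGFP. In Sleepy cortex at ZT12.5, 13 of the 33 cholesterol genes rose with HDAC4CA and none fell, when 10.9% of the 16352 genes tested were called and 5.80% were called higher. The rises took in 4 of 8 mevalonate and isoprenoid genes, 6 of 12 sterol genes, 2 of 6 sensing genes and 1 of 7 transport genes. Hmgcs1 was at 55.5, 52.5, 51.0 and 53.8 FPKM in the 4 Sleepy HDAC4CA cortex libraries, against 35.0, 36.3, 34.3 and 35.3 FPKM in the 4 Sleepy eGFP cortex libraries. Hmgcs1 makes HMG-CoA, an early intermediate of the pathway, and its difference was 0.59 ± 0.037 (SE; adjusted p = 2.31e-05), with all HDAC4CA libraries above all eGFP libraries. Insig1 was at 14.9, 11.9, 14.0 and 12.2 FPKM in HDAC4CA libraries, against 7.97, 9.18, 9.00 and 9.66 FPKM in eGFP libraries. Insig1, which retains SCAP and is itself switched on by SREBP2, differed by 0.55 ± 0.076 (SE; adjusted p = 0.00135), again without overlap.

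Downstream of mevalonate, Sqle was at 6.37, 6.13, 6.11 and 6.59 FPKM in Sleepy HDAC4CA cortex, against 4.40, 4.92, 4.12 and 3.94 FPKM in Sleepy eGFP cortex. The squalene epoxidase gene thus differed by 0.52 ± 0.077 (SE; adjusted p = 0.00189), and the groups stood apart. Fdft1 was at 17.0, 15.7, 13.9 and 16.3 FPKM in HDAC4CA libraries, against 11.6, 13.2, 11.1 and 12.3 FPKM in eGFP libraries. Fdft1, the squalene synthase gene, differed by 0.38 ± 0.055 (SE; adjusted p = 0.00195), also without overlap. Srebf2 was at 27.8, 24.0, 25.3 and 25.1 FPKM in HDAC4CA libraries, against 21.2, 22.2, 20.7 and 23.0 FPKM in eGFP libraries. The transcript of the pathway's own activator showed the smallest called difference, 0.22 ± 0.042 (SE; adjusted p = 0.00748), yet its lowest HDAC4CA library lay above the highest eGFP library. The remaining called genes were Nsdhl with a difference of 0.57, the sterol carrier gene Stard4 with 0.54, Mvd with 0.46, Fdps with 0.43, Cyp51 with 0.36, Msmo1 with 0.35, Pmvk with 0.35 and Sc5d with 0.24. Their adjusted p-values lay between 0.00245 for Nsdhl and 0.0442 for Pmvk. The median difference of the 33 genes was 0.19, against -0.014 over all genes tested. The liver X receptor gene Nr1h2 and its export targets Abca1 and Abcg1 were not called, at -0.19, 0.022 and 0.046.

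The promoters of these genes were read because SREBP2 binds sterol response elements beside NF-Y and Sp1 sites, and because CREB and MEF2, a partner of HDAC4, have sites of their own. RefSeq promoters of build GRCm38.p6 were matched for 27 of the 33 genes. The entries of Fdps, Fdft1, Sqle, Stard4, Abcg1 and Npc1 are named only. The 250 bases upstream of the start are shown for 3 of the 4 genes that were called higher in every HDAC4CA comparison with any call, with capitals for TCACNCCAC, CCAAT and GGGCGG on either strand, so that ATTGG and CCGCCC mark the second strand.
Hmgcs1 (chr13:119690101-119690350, plus strand): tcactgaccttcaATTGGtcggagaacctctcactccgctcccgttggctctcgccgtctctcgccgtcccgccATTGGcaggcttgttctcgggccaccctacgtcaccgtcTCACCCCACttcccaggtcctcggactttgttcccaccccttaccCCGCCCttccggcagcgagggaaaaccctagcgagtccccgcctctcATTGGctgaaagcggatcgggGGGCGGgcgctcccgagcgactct
Insig1 (chr5:28071162-28071411, plus strand): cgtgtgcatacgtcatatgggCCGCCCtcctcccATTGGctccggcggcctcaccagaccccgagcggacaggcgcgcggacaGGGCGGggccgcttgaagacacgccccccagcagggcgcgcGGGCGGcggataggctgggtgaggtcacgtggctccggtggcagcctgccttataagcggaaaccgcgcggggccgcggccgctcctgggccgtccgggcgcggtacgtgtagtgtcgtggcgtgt
Msmo1 (chr8:64733579-64733828, minus strand): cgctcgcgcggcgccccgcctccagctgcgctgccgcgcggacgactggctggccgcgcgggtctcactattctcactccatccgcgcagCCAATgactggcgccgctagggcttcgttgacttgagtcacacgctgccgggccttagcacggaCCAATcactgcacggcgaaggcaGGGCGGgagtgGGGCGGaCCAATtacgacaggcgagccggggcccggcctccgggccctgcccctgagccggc

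The Hmgcs1 window held 1 TCACNCCAC, 3 CCAAT and 2 GGGCGG, that of Insig1 held 1 CCAAT and 3 GGGCGG, and that of Msmo1 held 3 CCAAT and 2 GGGCGG. Both strands were searched, and matches of different motifs did not overlap. TCACNCCAC was found in 1 of the 27 genes, Hmgcs1 (3.70%), and in 1.22% of the 27025 genes of the table. CCAAT was found in 23 of 27 (85.2%), against 37.5% of all genes, and GGGCGG in 23 of 27 (85.2%), against 35.4%. TGACG, the half-site core of CREB elements, was found in 9 of 27 (33.3%), against 19.8%, and a motif of the MEF2 type in 0 of 27, against 3.70%. Matched letters are a description of the sequence and not evidence of binding.

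**Figure D1:**
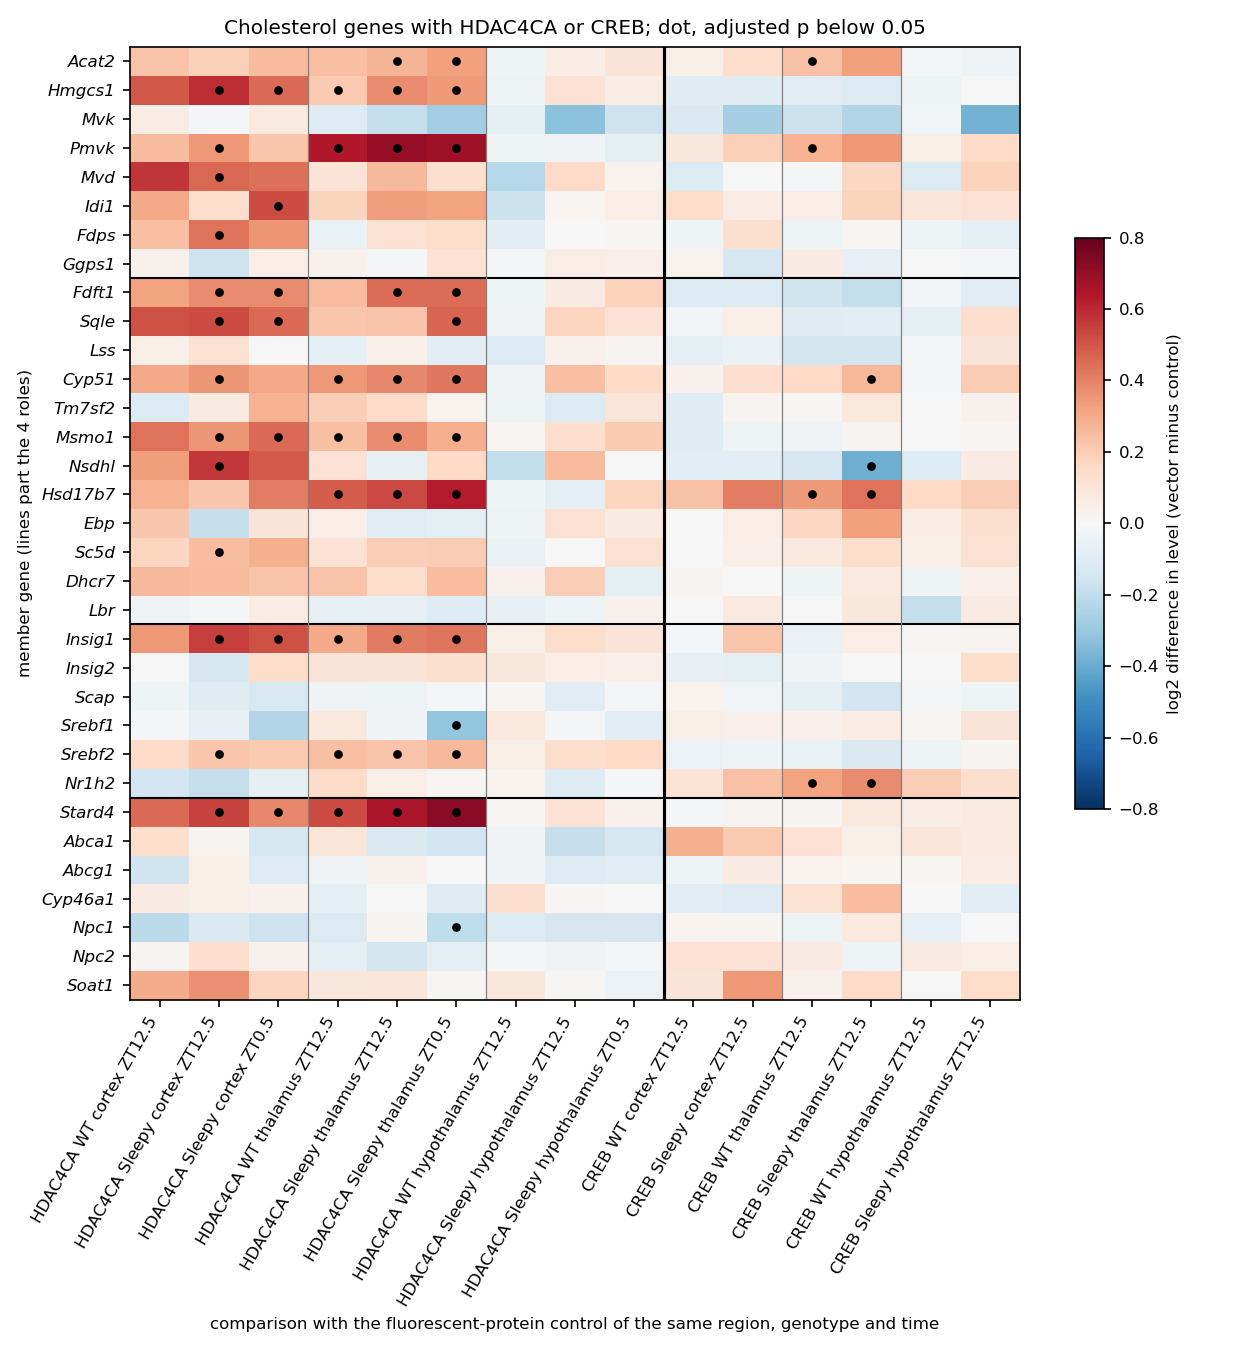
Colour gives the log2 difference of each of the 33 genes (rows, in 4 roles parted by lines) between HDAC4CA or CREB and the mCherry or eGFP control of the same region, genotype and time (columns), and a dot marks an adjusted p under 0.05. Called genes stand in the HDAC4CA columns of cortex and thalamus, except WT cortex, with few in the CREB columns and none in any hypothalamus column.

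Of 11 further cholesterol genes tested in Sleepy cortex at ZT12.5, 2 rose and 1 fell with HDAC4CA. They were the lipoprotein receptor gene Lrp8 at 0.33, the sterol transporter gene Gramd1a at 0.29 and, falling, Osbpl8 at -0.33. On the fatty acid side, 3 of 17 genes rose and none fell: the desaturase genes Scd2 by 0.25 and Scd1 by 0.30, and Thrsp by 0.58. Among 10 genes that use isoprenoids for other products, 1 fell, Coq2 at -0.33. Of cell type markers, 2 of 10 astrocyte genes rose and 1 fell, 2 of 10 microglia genes rose, and 3 of 13 neuron genes rose and 2 fell. The summed level of the astrocyte markers was 353 to 413 FPKM with HDAC4CA and 356 to 374 FPKM with eGFP, and that of the 5 blood genes was 33.8 to 69.7 FPKM against 71.6 to 173 FPKM. No blood gene was called, at a median of -1.01, and the part of these markers in the differences of the cholesterol genes was not tested.

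In Sleepy thalamus at ZT12.5, 10 of the 33 genes rose with HDAC4CA and none fell, with 11.9% of 16852 genes called and 6.60% called higher. Pmvk was at 14.3, 13.4, 15.0 and 16.9 FPKM in HDAC4CA thalamus libraries, against 9.53, 9.43, 8.17 and 10.5 FPKM in eGFP thalamus libraries. Pmvk, the phosphomevalonate kinase gene, showed the largest difference of the 33, 0.69 ± 0.083 (SE; adjusted p = 0.000861), without overlap. Stard4 was at 4.64, 4.86, 5.43 and 5.82 FPKM in HDAC4CA libraries, against 3.70, 3.30, 3.30 and 3.05 FPKM in eGFP libraries. Fdft1 was at 12.4, 15.2, 15.1 and 15.7 FPKM in HDAC4CA libraries, against 10.8, 11.4, 10.7 and 10.8 FPKM in eGFP libraries. Stard4 differed by 0.65 ± 0.086 (SE; adjusted p = 0.00155) and Fdft1 by 0.44 ± 0.048 (SE; adjusted p = 0.000515), both without overlap. Cyp51 was at 7.82, 8.97, 8.76 and 9.16 FPKM in HDAC4CA libraries, against 6.36, 6.67, 7.15 and 6.99 FPKM in eGFP libraries. Cyp51 demethylates lanosterol, and its groups did not overlap at 0.38 ± 0.051 (SE; adjusted p = 0.00165).

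The genes of the sterol sensor rose in the same thalamus libraries. Insig1 was at 16.5, 18.5, 16.3 and 20.0 FPKM in Sleepy HDAC4CA thalamus, against 13.7, 13.6, 12.6 and 14.8 FPKM in Sleepy eGFP thalamus. Srebf2 was at 24.4, 27.6, 26.4 and 27.4 FPKM in HDAC4CA libraries, against 22.6, 24.3, 21.8 and 23.5 FPKM in eGFP libraries. Insig1 differed by 0.41 ± 0.057 (SE; adjusted p = 0.00182) and Srebf2 by 0.23 ± 0.041 (SE; adjusted p = 0.00642), and for both every HDAC4CA library exceeded every eGFP library. Hmgcs1 was at 38.6, 46.1, 43.5 and 40.6 FPKM in HDAC4CA libraries, against 35.1, 34.7, 30.5 and 32.9 FPKM in eGFP libraries, a difference of 0.38 ± 0.067 (SE; adjusted p = 0.00668) with no overlap. Hsd17b7, which reduces a sterol ketone, rose by 0.53, Msmo1 by 0.38 and Acat2, of the first step, by 0.27. Of 12 further cholesterol genes, 2 rose and none fell: Gramd1a by 0.45 and Gramd1b by 0.34. Fatty acid genes went both ways, with 2 of 17 higher and 2 lower. Elovl7 was at -0.76 and Acacb at -0.77, against Elovl6 at 0.21 and Fasn at 0.21.

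Markers of choroid plexus and blood moved with this comparison. All 9 choroid plexus markers fell, with a median difference of -4.01, and their summed level was 37.4 to 46.1 FPKM in Sleepy HDAC4CA thalamus and 736 to 2020.0 FPKM in Sleepy eGFP thalamus. No marker of the list was at 0 in any of the 8 libraries. All 5 blood genes fell as well, with a median of -1.12, and 6 of 13 neuron markers rose. The neuron markers summed to 693 to 864 FPKM with HDAC4CA and 626 to 676 FPKM with eGFP, without overlap. The part of these markers in the differences at ZT12.5 was not tested. At ZT0.5 none of the 9 choroid plexus markers was called in Sleepy thalamus. At that time the summed choroid plexus level was 53.3 to 1310.0 FPKM with HDAC4CA and 62.4 to 1630.0 FPKM with eGFP.

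**Figure D2:**
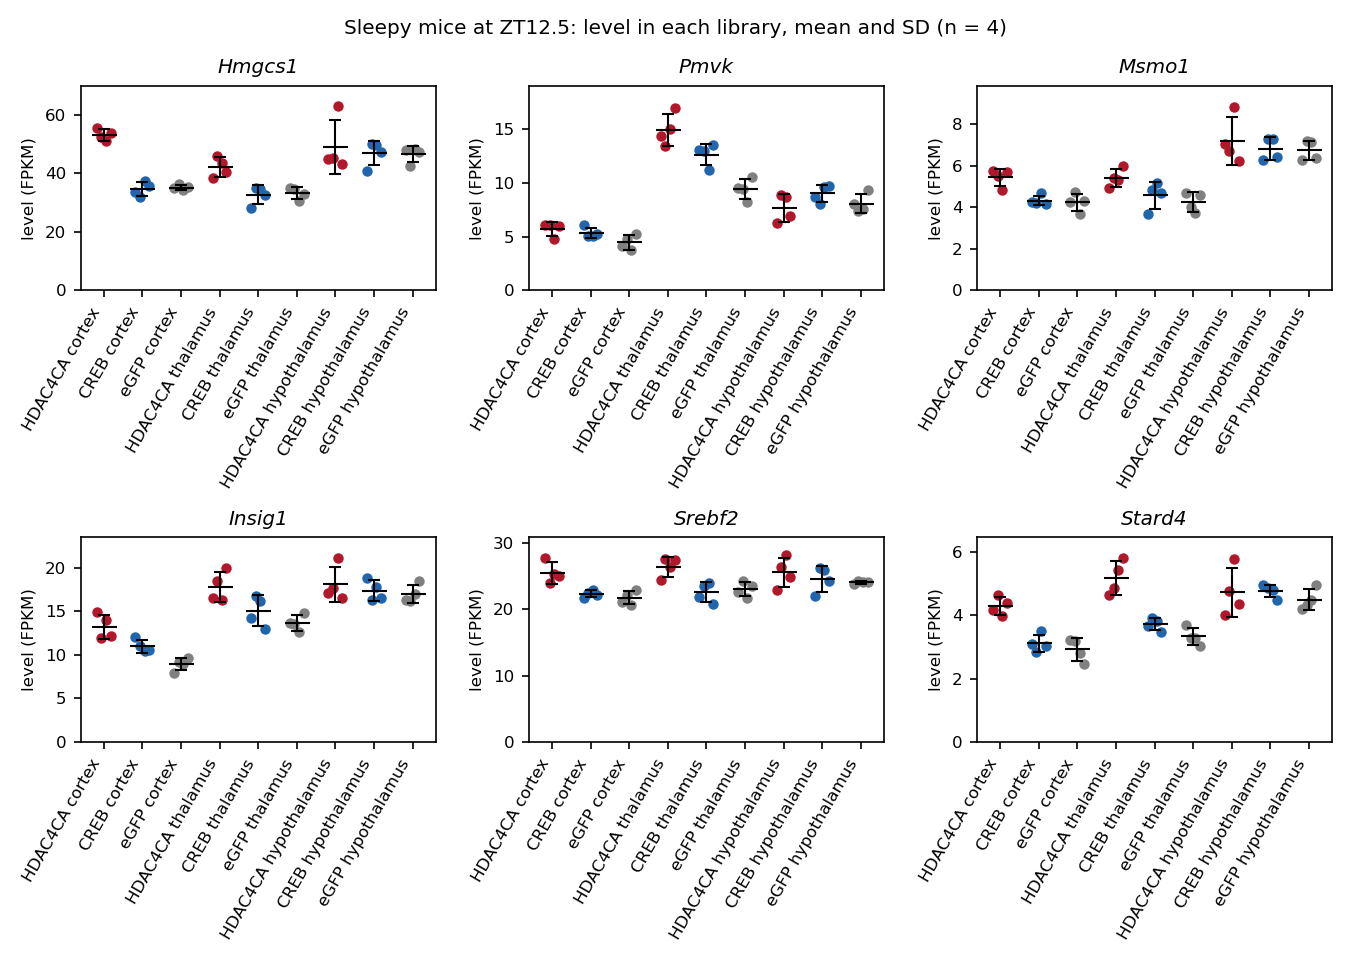
Points give the level in FPKM of 6 genes in each library of Sleepy mice at ZT12.5 with HDAC4CA, CREB or eGFP, in 3 regions; long bars are means and whiskers SDs of 4 libraries. Hmgcs1, Insig1, Srebf2 and Stard4 lie higher with HDAC4CA than with eGFP in cortex and thalamus, and in hypothalamus the groups overlap, with 1 HDAC4CA library at 63.0 FPKM for Hmgcs1.

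In Sleepy thalamus at ZT0.5, shortly after lights on, 11 of the 33 genes rose with HDAC4CA and 2 fell, when 5.24% of 16750 genes were called higher and 3.62% lower. Stard4 was at 6.27, 5.65, 5.65 and 5.54 FPKM in HDAC4CA libraries, against 3.57, 3.91, 3.93 and 3.28 FPKM in eGFP libraries. Its difference, 0.72 ± 0.071 (SE; adjusted p = 0.000317), was the largest of the 33 in this comparison. Insig1 was at 17.5, 15.6, 17.6 and 16.3 FPKM in HDAC4CA libraries, against 13.6, 12.8, 13.1 and 12.9 FPKM in eGFP libraries. Fdft1 was at 14.3, 13.6, 14.8 and 14.0 FPKM in HDAC4CA libraries, against 11.6, 10.4, 11.6 and 10.2 FPKM in eGFP libraries. Hsd17b7 was at 4.38, 3.91, 4.00 and 3.89 FPKM in HDAC4CA libraries, against 2.42, 2.58, 2.92 and 3.00 FPKM in eGFP libraries. Insig1 differed by 0.43 ± 0.052 (SE; adjusted p = 0.00104), Fdft1 by 0.45 ± 0.056 (SE; adjusted p = 0.00111) and Hsd17b7 by 0.63 ± 0.079 (SE; adjusted p = 0.00113), and none of these genes overlapped between groups.

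Among the regulators, Srebf2 was at 22.8, 22.3, 22.9 and 22.5 FPKM in Sleepy HDAC4CA thalamus at ZT0.5, against 19.5, 19.3, 20.7 and 20.3 FPKM in Sleepy eGFP thalamus. Hmgcs1 was at 44.3, 43.6, 48.0 and 46.9 FPKM in HDAC4CA libraries, against 36.8, 36.0, 41.0 and 38.4 FPKM in eGFP libraries. Srebf2 differed by 0.26 ± 0.04 (SE; adjusted p = 0.00362) and Hmgcs1 by 0.34 ± 0.055 (SE; adjusted p = 0.0041), and the groups of each stood apart. Pmvk rose by 0.68, Sqle by 0.46, Cyp51 by 0.42, Acat2 by 0.33 and Msmo1 by 0.29. The other SREBP gene went the opposite way. Srebf1 was at 7.62, 7.68, 7.44 and 6.88 FPKM in HDAC4CA libraries, against 9.30, 9.38, 9.85 and 10.5 FPKM in eGFP libraries, and Npc1 was at 5.56, 5.58, 5.57 and 5.08 FPKM in HDAC4CA libraries, against 6.72, 6.61, 6.69 and 6.53 FPKM in eGFP libraries. Srebf1 fell, with a difference of -0.31 ± 0.055 (SE; adjusted p = 0.00673), as did Npc1, which exports cholesterol from lysosomes, with -0.20 ± 0.051 (SE; adjusted p = 0.0366), and all HDAC4CA libraries lay below all eGFP libraries. Of the further lists, 2 of 12 cholesterol genes rose (Gramd1a by 0.31 and Gramd1b by 0.30), as did 3 of 17 fatty acid genes, with none falling in either list. Beside these, 4 of 12 myelin markers and 3 of 10 astrocyte markers fell, 1 astrocyte marker rose, and 8 of 13 neuron markers rose and 1 fell. The summed myelin level was 669 to 827 FPKM with HDAC4CA and 905 to 975 FPKM with eGFP. The blood genes, 2 of 5 lower, summed to 33.5 to 62.1 FPKM with HDAC4CA and 74.1 to 139 FPKM with eGFP, and the endothelial markers, none called, to 37.2 to 40.8 and 41.4 to 48.0 FPKM. The neuron markers summed to 734 to 777 FPKM with HDAC4CA and 643 to 679 FPKM with eGFP, and the astrocyte markers to 391 to 420 and 438 to 473 FPKM. The groups did not overlap in any of these sums, and their part in the differences was not tested.

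In Sleepy cortex at ZT0.5, 7 of the 33 genes rose with HDAC4CA and none fell, with 4.34% of 15938 genes called and 2.44% called higher. Insig1 was at 11.1, 10.5, 14.2 and 10.3 FPKM in HDAC4CA cortex, against 7.64, 8.53, 8.10 and 7.93 FPKM in eGFP cortex. Hmgcs1 was at 44.9, 48.0, 59.3 and 48.0 FPKM in HDAC4CA cortex, against 33.1, 42.8, 33.7 and 37.4 FPKM in eGFP cortex. The lowest HDAC4CA library exceeded the highest eGFP library for both, at differences of 0.51 ± 0.10 (SE; adjusted p = 0.0177) for Insig1 and 0.45 ± 0.086 (SE; adjusted p = 0.0183) for Hmgcs1. Sqle was at 5.64, 6.85, 7.60 and 6.32 FPKM in HDAC4CA cortex, against 4.45, 5.48, 4.47 and 4.88 FPKM in eGFP cortex. Fdft1 was at 14.1, 14.6, 16.8 and 13.5 FPKM in HDAC4CA cortex, against 11.6, 11.0, 11.5 and 11.3 FPKM in eGFP cortex. These squalene genes differed by 0.45 ± 0.088 (SE; adjusted p = 0.0197) for Sqle and 0.38 ± 0.075 (SE; adjusted p = 0.0201) for Fdft1, without overlap. Idi1, the isopentenyl diphosphate isomerase gene, rose by 0.52, Msmo1 by 0.45 and Stard4 by 0.38. Srebf2 was at 23.5, 24.0, 26.4 and 22.5 FPKM in HDAC4CA cortex, against 20.5, 22.2, 18.9 and 22.1 FPKM in eGFP cortex, a difference of 0.21 ± 0.054 (SE; adjusted p = 0.0548) that did not pass. Of 11 further cholesterol genes, Lrp8 rose by 0.48 and Osbpl8 fell, at -0.43, and of 16 fatty acid and 10 isoprenoid branch genes none was called. Of cell type markers, 2 of 12 myelin genes and 4 of 5 blood genes fell, and 3 of 13 neuron and 1 of 10 microglia genes rose. The myelin markers summed to 201 to 223 FPKM with HDAC4CA and 236 to 275 FPKM with eGFP, and the blood genes to 33.7 to 49.9 and 61.4 to 97.1 FPKM, both without overlap, and their part in the rises was not tested. The count was less steady here than at ZT12.5: it was 4 without rescaling, 0 without the filter on low values, 13 with voom on recovered reads, 7 without HDAC4CA replicate 1 and 2 to 5 without any other single library, the 2 being without eGFP replicate 1 or 2.

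WT mice with HDAC4CA were set against WT mice with mCherry. In WT thalamus, 8 of the 33 genes rose and none fell, with 7.20% of 16816 genes called and 4.20% called higher. Pmvk was at 15.6, 13.8, 15.4 and 13.7 RPKM in WT HDAC4CA thalamus, against 9.88, 9.72, 9.90 and 9.62 RPKM in WT mCherry thalamus. Stard4 was at 6.99, 7.28, 7.34 and 7.56 RPKM in HDAC4CA libraries, against 5.02, 5.36, 5.79 and 4.98 RPKM in mCherry libraries. The groups stood apart for both, with differences of 0.64 ± 0.056 (SE; adjusted p = 0.000128) for Pmvk and 0.52 ± 0.054 (SE; adjusted p = 0.000339) for Stard4. Hsd17b7 was at 5.13, 5.30, 5.64 and 5.52 RPKM in HDAC4CA libraries, against 4.09, 4.07, 4.10 and 3.79 RPKM in mCherry libraries. Cyp51 was at 13.2, 13.7, 13.8 and 13.5 RPKM in HDAC4CA libraries, against 10.4, 11.1, 11.9 and 11.2 RPKM in mCherry libraries. Hsd17b7 differed by 0.48 ± 0.052 (SE; adjusted p = 0.000505) and Cyp51 by 0.35 ± 0.043 (SE; adjusted p = 0.00119), again with no overlap. Srebf2 was at 25.6, 25.8, 27.2 and 25.3 RPKM in HDAC4CA libraries, against 22.7, 23.3, 24.4 and 21.7 RPKM in mCherry libraries. Insig1 was at 16.5, 16.2, 18.6 and 17.9 RPKM in HDAC4CA libraries, against 14.4, 15.0, 15.9 and 13.3 RPKM in mCherry libraries. Srebf2 differed by 0.24 ± 0.039 (SE; adjusted p = 0.00492) and Insig1 by 0.30 ± 0.062 (SE; adjusted p = 0.0161), both without overlap. Hmgcs1 was at 52.0, 60.2, 63.4 and 57.2 RPKM in HDAC4CA libraries, against 53.5, 50.5, 57.5 and 49.5 RPKM in mCherry libraries; here the groups overlapped, at 0.21 ± 0.054 (SE; adjusted p = 0.0451). Msmo1 was the eighth, at 0.24. Of 12 further cholesterol genes 2 rose, Gramd1a at 0.26 and Gramd1b at 0.21, and 2 fell, Vldlr at -0.17 and Osbpl8 at -0.18. Of cell type markers, 4 of 10 microglia, 4 of 13 neuron and 1 of 10 astrocyte genes rose, and 1 neuron and 1 of 12 myelin genes fell. The myelin markers summed to 966 to 1140.0 RPKM with HDAC4CA and 1150.0 to 1180.0 RPKM with mCherry, and the neuron markers to 886 to 977 and 822 to 870 RPKM. Neither sum overlapped between the groups, and the part of these markers was not tested. The fatty acid elongase gene Elovl6 rose by 0.18, alone of 17 fatty acid genes. The count was 4 without rescaling and 5 without the filter, without mCherry replicate 4 or without HDAC4CA replicate 3 or 4.

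In WT cortex, none of the 33 genes was called by limma, although 6.49% of 15916 genes were. At an unadjusted p under 0.05, 11 genes were higher and 1 lower, and voom called 1 higher and 1 lower. The shares of all genes at that unadjusted p and with voom are not given, here or for the other comparisons. Such counts of the 33 genes therefore have no background beside them. Hmgcs1 was at 42.6, 70.5, 76.0 and 94.1 RPKM in WT HDAC4CA cortex, against 47.2, 49.3, 50.4 and 54.8 RPKM in WT mCherry cortex. Its first HDAC4CA library thus lay below every mCherry library and the other 3 above them, at 0.50 ± 0.20 (SE; adjusted p = 0.192). Insig1 was at 9.66, 14.9, 16 and 14.5 RPKM in WT HDAC4CA cortex, against 10.2, 10.9, 12.6 and 10.7 RPKM in WT mCherry cortex, with the same library lowest. Hdac4 was at 5.14, 5.39, 6.10 and 7.40 RPKM in the HDAC4CA libraries, so that this library had the lowest but a raised level. Without it, 14 of the 33 genes were called higher and 1 lower, with 5.97% of all genes called higher and 5.86% lower. Then Mvd differed by 0.81, Hmgcs1 by 0.71, Sqle by 0.69, Stard4 by 0.62, Msmo1 by 0.61, Insig1 by 0.50 and Srebf2 by 0.23, and Npc1 was lower, at -0.24. Without any other single library of the 8, the count stayed at 0. The lowest p-values with all libraries belonged to Soat1, which esterifies cholesterol for storage, at 0.30 ± 0.081 (SE; adjusted p = 0.0565), and to Npc1, at -0.21 ± 0.061 (SE; adjusted p = 0.0745). Same-numbered libraries of WT cortex deviated together, but replicate 4 stood apart there, so pairing of replicates 1 to 3 by number could not be shown. With the replicate as a block in limma 1 gene was called, Sqle at 0.51 (adjusted p = 0.0423). Of the 33 genes, Idi1, Fdps and Cyp46a1 did not overlap between the 3 replicate 4 libraries and the other 9 of WT cortex with these vectors. The share of all genes without overlap in this split was not counted. Idi1 was at 0.151 to 0.346 RPKM in the replicate 4 libraries, against 0.735 to 1.34 RPKM in the others, Fdps at 1.87 to 2.50 RPKM, against 2.98 to 4.32 RPKM, and Cyp46a1 at 43.2 to 50.1 RPKM, against 34.3 to 40.8 RPKM.

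**Figure D3:**
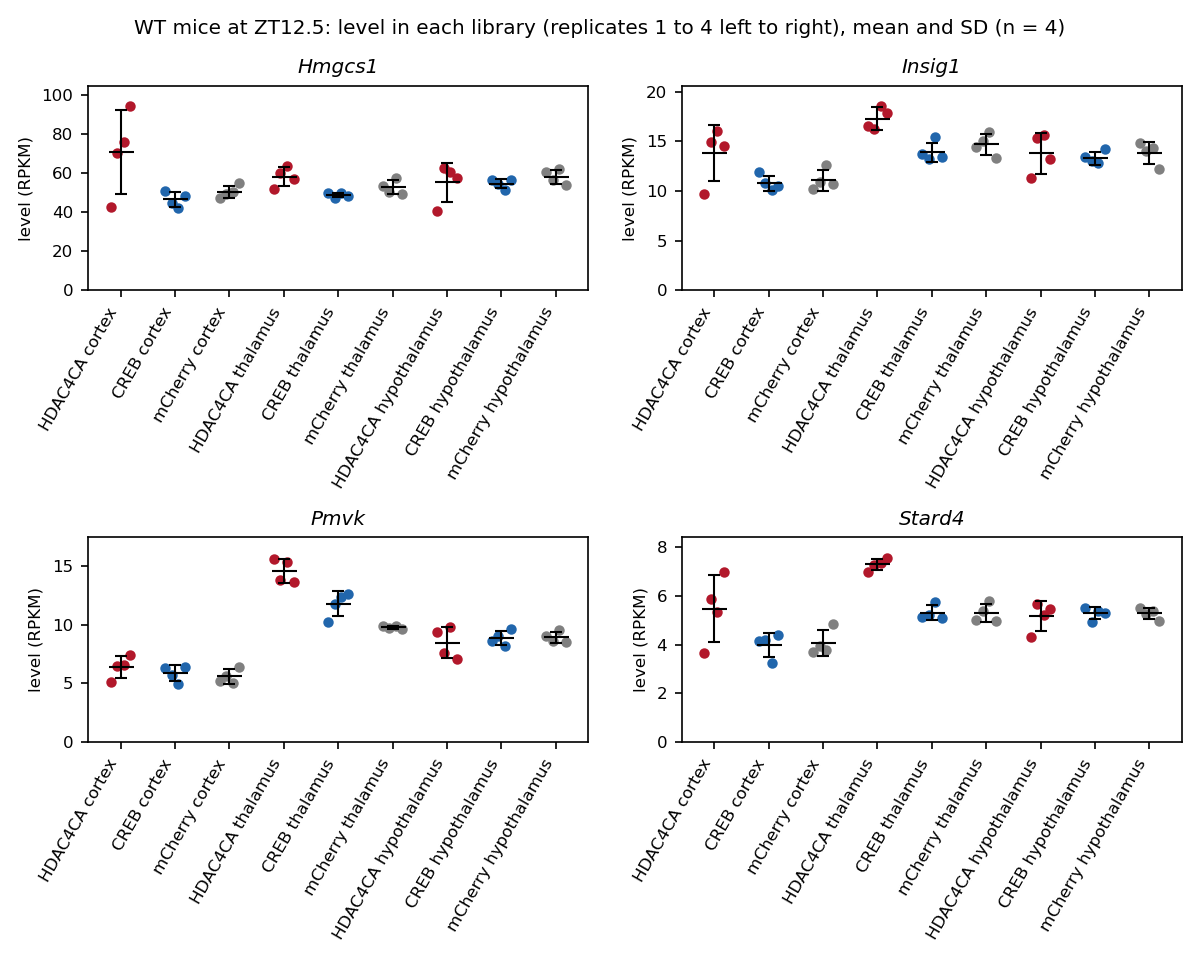
Points give the level in RPKM of Hmgcs1, Insig1, Pmvk and Stard4 in each library of WT mice at ZT12.5 with HDAC4CA, CREB or mCherry, in 3 regions; long bars are means and whiskers SDs of 4 libraries. In cortex HDAC4CA and mCherry libraries overlap for all 4 genes, with 1 HDAC4CA library below every mCherry library for Hmgcs1 and Insig1. In thalamus Pmvk and Stard4 separate HDAC4CA from mCherry.

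In hypothalamus, limma called none of the 33 genes with HDAC4CA in any of the 3 comparisons, where few genes were called at all: 0.152% in WT mice, 0.0691% in Sleepy mice at ZT12.5 and 0.0175% at ZT0.5. Unadjusted p-values were under 0.05 for 1 higher gene in WT mice, for 1 higher and 1 lower gene in Sleepy mice at ZT12.5 and for 6 higher genes at ZT0.5, and voom called none. The 2 smallest p-values in WT mice were those of Cyp46a1 at 0.14 ± 0.043 (SE; adjusted p = 0.292) and Insig2 at 0.094 ± 0.043 (SE; adjusted p = 0.461). In Sleepy mice at ZT12.5 they were those of Cyp51 at 0.24 ± 0.087 (SE; adjusted p = 0.438) and Mvk at -0.33 ± 0.13 (SE; adjusted p = 0.48), and at ZT0.5 those of Fdft1 at 0.18 ± 0.058 (SE; adjusted p = 0.466) and Srebf2 at 0.16 ± 0.056 (SE; adjusted p = 0.527). Hmgcs1 was at 45.1, 45.2, 63.0 and 43.2 FPKM in Sleepy HDAC4CA hypothalamus at ZT12.5, against 48.2, 42.6, 48.5 and 47.4 FPKM in Sleepy eGFP hypothalamus; the third HDAC4CA library stood above the rest. Hmgcs1 was at 40.6, 62.7, 60.5 and 57.5 RPKM in WT HDAC4CA hypothalamus, against 60.3, 56.6, 61.9 and 54.0 RPKM in WT mCherry hypothalamus, and there the first HDAC4CA library was the lowest. Hdac4 itself was at 5.41, 6.24, 4.52 and 5.85 FPKM in Sleepy HDAC4CA hypothalamus at ZT12.5, against 2.53, 2.83, 2.96 and 2.61 FPKM with eGFP.

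Across the 5 HDAC4CA comparisons with calls, 16 of the 33 genes were called higher at least once and 15 were not called at all in the 9 HDAC4CA comparisons. Hmgcs1, Insig1, Msmo1 and Stard4 were called higher in all 5, and Pmvk, Srebf2, Cyp51 and Fdft1 in 4. Sqle and Hsd17b7 were called in 3, Acat2 in 2, and Mvd, Idi1, Fdps, Nsdhl and Sc5d in 1 each. These 5 comparisons were taken because some of the 33 genes were called in them. Each called 2.44% to 6.60% of all genes higher. The shares of all genes called higher at least once, or in all 5, were not counted, so these counts have no background beside them. The WT and Sleepy comparisons used separate libraries, and those at ZT12.5 shared their control libraries with the CREB comparisons. Genes never called included Scap, Insig2, the branch-point enzyme gene Ggps1, Lss, the export genes Abca1 and Abcg1, Npc2 and Cyp46a1. By promoter letters, the 12 matched genes called higher with HDAC4CA held CCAAT in 11, GGGCGG in 11 and TGACG in 6. The 15 matched genes not called higher held them in 12, 12 and 3.

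The differences between times and regions were tested directly. In Sleepy mice, the HDAC4CA difference at ZT12.5 minus that at ZT0.5 was not called by limma for any of the 33 genes in cortex, thalamus or hypothalamus, nor for any gene tested (0% called in each), and voom called none of the 33. At an unadjusted p under 0.05 there were 0 higher and 2 lower of the 33 in cortex, 2 and 1 in thalamus, and 0 and 0 in hypothalamus. The smallest p-values were those of Insig2 at -0.28 ± 0.11 (SE; adjusted p = 0.614) and Idi1 at -0.38 ± 0.17 (SE; adjusted p = 0.634) in cortex, Srebf1 at 0.28 ± 0.072 (SE; adjusted p = 0.493) and Npc1 at 0.21 ± 0.066 (SE; adjusted p = 0.493) in thalamus, and Dhcr7 at 0.27 ± 0.15 (SE; adjusted p = 1.00) and Sc5d at -0.13 ± 0.094 (SE; adjusted p = 1.00) in hypothalamus. For Hmgcs1 in cortex the interval of this difference ran from -0.077 to 0.35. In simulated data, the like test of cortex minus thalamus called 0% of genes changed by 0.3 and 10% changed by 0.6. The simulation gave every gene the same assumed spread between libraries, so these shares do not measure those of the real libraries. Differences between times of that size could still be missed. Between regions at ZT12.5, the HDAC4CA difference was larger in cortex than in thalamus for 1 gene, Nsdhl, with 9.10% of genes called and 4.12% called higher.

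Nsdhl was at 3.36, 3.54, 3.37 and 3.45 FPKM in Sleepy HDAC4CA cortex, against 2.27, 2.02, 2.30 and 2.54 FPKM in Sleepy eGFP cortex. Nsdhl was at 2.25, 3.22, 2.96 and 3.24 FPKM in Sleepy HDAC4CA thalamus, against 2.83, 3.19, 3.21 and 3.12 FPKM in Sleepy eGFP thalamus. Nsdhl, which removes a sterol carboxyl group, thus separated the groups in cortex and not in thalamus, and the difference of differences was 0.62 ± 0.12 (SE; adjusted p = 0.00266). For the genes read in every comparison, it was 0.20 ± 0.081 (SE; adjusted p = 0.137) for Hmgcs1, 0.13 ± 0.10 (SE; adjusted p = 0.512) for Insig1 and -0.019 ± 0.056 (SE; adjusted p = 0.895) for Srebf2. Cortex minus hypothalamus gave no call by limma for the 33 genes, with 2.92% of genes called, 9 higher and 1 lower at an unadjusted p under 0.05, and 0 called higher and 0 lower by voom. The difference of differences was 0.48 ± 0.14 (SE; adjusted p = 0.0866) for Hmgcs1 and 0.42 ± 0.13 (SE; adjusted p = 0.0974) for Insig1. The third HDAC4CA hypothalamus library was the one with the outlying high level of Hmgcs1. Without it, the HDAC4CA difference was called larger in cortex for 5 of the 33 genes. The share of all genes called in that fit is not given, and the library was singled out by the level of 1 of the 33 genes. The count of 5 therefore cannot be read as a result about these genes.

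CREB in place of the control protein moved few of these genes. In WT thalamus, 4 of the 33 rose with CREB and none fell, with 3.40% of 16902 genes called and 2.30% called higher. Hsd17b7 was at 4.81, 4.91, 5.44 and 4.97 RPKM in WT CREB thalamus, against 4.09, 4.07, 4.10 and 3.79 RPKM in WT mCherry thalamus. Nr1h2 was at 6.52, 6.85, 7.35 and 7.05 RPKM in CREB libraries, against 5.28, 6.00, 5.97 and 5.20 RPKM in mCherry libraries. Every CREB library exceeded every mCherry library for both genes, at 0.34 ± 0.043 (SE; adjusted p = 0.00397) for Hsd17b7 and 0.32 ± 0.049 (SE; adjusted p = 0.00877) for the liver X receptor gene Nr1h2. Pmvk was at 10.2, 11.8, 12.4 and 12.6 RPKM in CREB libraries, against 9.88, 9.72, 9.90 and 9.62 RPKM in mCherry libraries. Acat2 was at 5.33, 5.40, 5.91 and 5.32 RPKM in CREB libraries, against 4.68, 4.42, 5.05 and 4.74 RPKM in mCherry libraries. Pmvk differed by 0.28 ± 0.052 (SE; adjusted p = 0.0197) and Acat2 by 0.23 ± 0.047 (SE; adjusted p = 0.0274), without overlap. Hmgcs1 was at 49.8, 47.4, 49.8 and 48.2 RPKM with CREB against 53.5, 50.5, 57.5 and 49.5 RPKM with mCherry, Insig1 at 13.7, 13.2, 15.4 and 13.4 RPKM against 14.4, 15.0, 15.9 and 13.3 RPKM, and Srebf2 at 21.7, 21.1, 22.4 and 22.3 RPKM against 22.7, 23.3, 24.4 and 21.7 RPKM. None of these 3 was called, at -0.089, -0.054 and -0.054. The count was 2 without rescaling or without the filter on low values, and 2 without mCherry replicate 2 or 4 or without CREB replicate 2, 3 or 4.

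In Sleepy thalamus, 3 of the 33 genes rose with CREB and 1 fell, with 2.95% of 16878 genes called higher and 1.44% lower. Hsd17b7 was at 3.61, 4.12, 3.81 and 3.78 FPKM in Sleepy CREB thalamus, against 2.63, 3.06, 2.62 and 2.36 FPKM in Sleepy eGFP thalamus. Nr1h2 was at 8.77, 9.03, 9.31 and 8.52 FPKM in CREB libraries, against 5.87, 6.24, 6.01 and 7.90 FPKM in eGFP libraries. Hsd17b7 differed by 0.43 ± 0.085 (SE; adjusted p = 0.022) and Nr1h2 by 0.38 ± 0.082 (SE; adjusted p = 0.0315), both without overlap. Nsdhl was at 2.63, 2.51, 2.32 and 2.39 FPKM in CREB libraries, against 2.83, 3.19, 3.21 and 3.12 FPKM in eGFP libraries. Cyp51 was at 8.02, 9.49, 8.95 and 8.12 FPKM in CREB libraries, against 6.36, 6.67, 7.15 and 6.99 FPKM in eGFP libraries. Nsdhl fell, at -0.39 ± 0.086 (SE; adjusted p = 0.0325), with all CREB libraries below the eGFP libraries, and Cyp51 rose, at 0.26 ± 0.062 (SE; adjusted p = 0.0452). Hmgcs1 was at 28.2, 35.2, 34.8 and 32.7 FPKM with CREB, against the eGFP values given above, and was not called, at -0.11. Insig1, at 14.2, 16.8, 16.2 and 13.0 FPKM with CREB, and Srebf2, at 21.9, 23.5, 24.0 and 20.8 FPKM, were not called either, at 0.054 and -0.11. These calls were not steady: without rescaling 5 genes were higher and none lower, without the filter none was called, voom called 6 higher and 1 lower, and without single libraries the count lay between 0 and 3. It was 0 without eGFP replicate 1 or CREB replicate 4, 1 without eGFP replicate 2 or CREB replicate 1, 2 without eGFP replicate 3 or 4 or CREB replicate 2, and 3 without CREB replicate 3. No member of the further cholesterol list was called in WT or Sleepy thalamus, whereas the isoprenoid gene Dhdds, of dolichol synthesis, rose by 0.39 in WT and 0.54 in Sleepy thalamus with CREB. Of cell type markers, 2 of 10 astrocyte genes rose in each genotype, and no myelin gene was called. The astrocyte markers summed to 607 to 627 RPKM with CREB and 552 to 574 RPKM with mCherry in WT thalamus, and to 465 to 487 FPKM with CREB and 384 to 409 FPKM with eGFP in Sleepy thalamus. The myelin markers of Sleepy thalamus summed to 783 to 851 FPKM with CREB and 607 to 769 FPKM with eGFP. The groups overlapped in none of these sums, and the part of these markers was not tested.

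Outside the thalamus limma called none of the 33 genes with CREB, and few or no genes in all: 0.0621% in WT cortex, 0.0674% in Sleepy cortex, 0% in WT hypothalamus and 0.00574% in Sleepy hypothalamus. At an unadjusted p under 0.05, 3 genes were higher and 1 lower in WT cortex, 5 and 1 in Sleepy cortex, 2 and 0 in WT hypothalamus, and 4 and 1 in Sleepy hypothalamus; voom called 1 higher in Sleepy cortex and none elsewhere. The smallest p-values in cortex were those of the exporter gene Abca1 at 0.28 ± 0.062 (SE; adjusted p = 0.31) and Hsd17b7 at 0.23 ± 0.069 (SE; adjusted p = 0.497) in WT mice, and of Soat1 at 0.35 ± 0.075 (SE; adjusted p = 0.191) and Hsd17b7 at 0.41 ± 0.10 (SE; adjusted p = 0.235) in Sleepy mice. In hypothalamus they were those of Nr1h2 at 0.20 ± 0.048 (SE; adjusted p = 1.00) and Abca1 at 0.094 ± 0.04 (SE; adjusted p = 1.00) in WT mice, and of Mvk at -0.38 ± 0.082 (SE; adjusted p = 0.83) and Cyp51 at 0.20 ± 0.072 (SE; adjusted p = 0.857) in Sleepy mice.

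HDAC4CA was also set against CREB directly, with no shared control. In WT thalamus, 10 of the 33 genes were higher with HDAC4CA than with CREB and 1 was lower, with 6.95% of 16798 genes called higher and 5.69% lower. Stard4 was at 6.99, 7.28, 7.34 and 7.56 RPKM in WT HDAC4CA thalamus, against 5.13, 5.21, 5.76 and 5.10 RPKM in WT CREB thalamus. Srebf2 was at 25.6, 25.8, 27.2 and 25.3 RPKM in HDAC4CA libraries, against 21.7, 21.1, 22.4 and 22.3 RPKM in CREB libraries. Stard4 differed by 0.51 ± 0.048 (SE; adjusted p = 0.000184) and Srebf2 by 0.30 ± 0.039 (SE; adjusted p = 0.00102), and for both all HDAC4CA libraries were above all CREB libraries. With the same WT HDAC4CA thalamus values as given above, Insig1 differed by 0.36 ± 0.059 (SE; adjusted p = 0.00345) and Hmgcs1 by 0.30 ± 0.052 (SE; adjusted p = 0.00462). Fdft1 was higher by 0.41, Pmvk by 0.37, Sqle by 0.32, Dhcr7 by 0.27, Msmo1 by 0.27 and Cyp51 by 0.19, and Nr1h2 was lower, at -0.17 ± 0.048 (SE; adjusted p = 0.0439). Of 12 further cholesterol genes 2 were higher and 1 lower: Gramd1b at 0.19, Gramd1a at 0.19 and, lower, Osbp at -0.25. Of cell type markers, 3 of 10 astrocyte genes were lower, with sums of 523 to 584 RPKM with HDAC4CA and 607 to 627 RPKM with CREB, and 7 of 13 neuron genes were higher and 1 lower; their part was not tested.

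In Sleepy cortex, 9 of the 33 genes were higher with HDAC4CA than with CREB and 1 was lower, with 5.35% of 16287 genes called higher and 4.68% lower. Hmgcs1 was at 55.5, 52.5, 51.0 and 53.8 FPKM in Sleepy HDAC4CA cortex, against 33.6, 32.0, 37.6 and 35.7 FPKM in Sleepy CREB cortex. Nsdhl was at 3.36, 3.54, 3.37 and 3.45 FPKM in HDAC4CA libraries, against 2.13, 2.43, 2.23 and 2.20 FPKM in CREB libraries. Hmgcs1 differed by 0.69 ± 0.049 (SE; adjusted p = 4.2e-05) and Nsdhl by 0.66 ± 0.081 (SE; adjusted p = 0.000802), without overlap. Fdft1 was at 17.0, 15.7, 13.9 and 16.3 FPKM in HDAC4CA libraries, against 11.8, 11.5, 11.5 and 12.1 FPKM in CREB libraries. Msmo1 was at 5.76, 5.48, 4.84 and 5.69 FPKM in HDAC4CA libraries, against 4.23, 4.21, 4.67 and 4.17 FPKM in CREB libraries. Fdft1 differed by 0.49 ± 0.051 (SE; adjusted p = 0.000277) and the sterol oxidase gene Msmo1 by 0.40 ± 0.062 (SE; adjusted p = 0.00266). Srebf2 was higher by 0.27, with CREB libraries at 21.8, 22.5, 23.0 and 22.2 FPKM, and Insig1 by 0.34, with CREB libraries at 12.1, 11.0, 10.5 and 10.6 FPKM. Stard4 was higher by 0.53, Sqle by 0.49 and Mvd by 0.47, and Nr1h2 was lower, at -0.42. Of 11 further cholesterol genes 1 was higher and none lower, Lrp8 by 0.32. Of 10 astrocyte markers 4 were lower and 1 higher, with sums of 353 to 413 FPKM with HDAC4CA and 417 to 460 FPKM with CREB, and their part was not tested.

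In Sleepy thalamus, 9 of the 33 genes were higher with HDAC4CA than with CREB and 1 was lower, with 8.03% of 16920 genes called higher and 6.26% lower. Fdft1 was at 12.4, 15.2, 15.1 and 15.7 FPKM in Sleepy HDAC4CA thalamus, against 9.00, 11.2, 10.9 and 9.50 FPKM in Sleepy CREB thalamus, a difference of 0.64 ± 0.064 (SE; adjusted p = 0.000249). Stard4 was at 4.64, 4.86, 5.43 and 5.82 FPKM in HDAC4CA libraries, against 3.68, 3.93, 3.84 and 3.48 FPKM in CREB libraries, a difference of 0.58 ± 0.071 (SE; adjusted p = 0.000772). Neither gene overlapped between groups. Hmgcs1 was at 38.6, 46.1, 43.5 and 40.6 FPKM in HDAC4CA libraries, against 28.2, 35.2, 34.8 and 32.7 FPKM in CREB libraries. Srebf2 was at 24.4, 27.6, 26.4 and 27.4 FPKM in HDAC4CA libraries, against 21.9, 23.5, 24.0 and 20.8 FPKM in CREB libraries. Hmgcs1 differed by 0.49 ± 0.069 (SE; adjusted p = 0.00141) and Srebf2 by 0.35 ± 0.052 (SE; adjusted p = 0.00198), both without overlap. Insig1 was higher by 0.36, Msmo1 by 0.36, Pmvk by 0.35, Nsdhl by 0.34 and Sqle by 0.32, and Nr1h2 was lower, at -0.32. Of 12 further cholesterol genes 1 was higher, Gramd1b at 0.31, and 1 lower, Osbp at -0.24, and Dhdds was lower, at -0.57. Rescaling mattered here: without it 3 genes were higher and 3 lower, and the median of all genes moved to -0.12, against -0.0077 with it. Choroid plexus markers were again lower in 4 of 9, with a summed level of 37.4 to 46.1 FPKM with HDAC4CA and 56.8 to 1300.0 FPKM with CREB, and 9 of 13 neuron markers were higher. Of 10 astrocyte markers 5 were lower and 1 higher, with sums of 357 to 443 FPKM with HDAC4CA and 465 to 487 FPKM with CREB, and the myelin markers, none called, summed to 644 to 748 and 783 to 851 FPKM. The part of these markers was not tested.

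In WT cortex, 1 of the 33 genes was higher with HDAC4CA than with CREB, Fdft1 at 0.45 ± 0.10 (SE; adjusted p = 0.0257), with 5.96% of genes called and 3.17% called higher. Fdft1 was at 13.6, 17.3, 17.4 and 17.2 RPKM in WT HDAC4CA cortex, against 12.5, 13.6, 12.1 and 11.7 RPKM in WT CREB cortex. Hmgcs1 differed by 0.61 ± 0.21 (SE; adjusted p = 0.135), Srebf2 by 0.22 ± 0.077 (SE; adjusted p = 0.129) and Insig1 by 0.38 ± 0.16 (SE; adjusted p = 0.197). Without HDAC4CA replicate 1, 13 genes were called higher, with 10.8% of genes called and 5.97% called higher, and without any 1 of the other 7 libraries the count was 0 or 1. In hypothalamus limma called none of the 33 between HDAC4CA and CREB, with 0.194% of genes called in WT and 0.0344% in Sleepy mice; 1 was higher and 1 lower at an unadjusted p under 0.05 in WT mice and 0 and 3 in Sleepy mice, and voom called 0. Nr1h2 had the smallest p in both, at -0.17 ± 0.052 (SE; adjusted p = 0.247) in WT and -0.24 ± 0.076 (SE; adjusted p = 0.335) in Sleepy mice, followed by Cyp46a1 at 0.12 ± 0.051 (SE; adjusted p = 0.395) in WT and Abca1 at -0.27 ± 0.095 (SE; adjusted p = 0.39) in Sleepy mice.

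The Sik3 allele alone, compared in mice with eGFP at both times, gave no call by limma among the 33 genes in any region. Over all genes 0.00617% were called in cortex, 0% in thalamus and 0.0406% in hypothalamus. At an unadjusted p under 0.05 there were 3 lower genes in cortex, 2 lower in thalamus, and 1 higher and 1 lower in hypothalamus, and voom called 0. The smallest p-values belonged in cortex to Abca1, at 2.50 to 3.57 FPKM (median 2.91) in Sleepy mice and 2.90 to 4.09 FPKM (median 3.46) in WT mice, a difference of -0.16 ± 0.045 (SE; adjusted p = 0.579), and to Cyp51, at -0.14 ± 0.051 (SE; adjusted p = 0.708). In thalamus they belonged to Acat2 at -0.17 ± 0.064 (SE; adjusted p = 0.769) and Lbr at -0.14 ± 0.062 (SE; adjusted p = 0.798), and in hypothalamus to Srebf2 at -0.067 ± 0.028 (SE; adjusted p = 0.61) and Npc2 at 0.089 ± 0.042 (SE; adjusted p = 0.672). Hmgcs1 was at 33.1 to 42.8 FPKM (median 35.1) in Sleepy cortex and 32.5 to 42.1 FPKM (median 37.1) in WT cortex, and the interval of its difference ran from -0.13 to 0.05. Over the 33 genes and 3 regions the differences lay between -0.17 and 0.12.

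Time of day was read in the same eGFP mice, with 8 libraries of both genotypes at each time. In thalamus, 14 of the 33 genes were higher at ZT12.5 than at ZT0.5 and 6 were lower, but 23.6% of all 16849 genes were called higher and 18.0% lower. Of the 6 sensing genes 5 were higher and 1 lower. Srebf2 was at 21.8 to 24.8 FPKM (median 23.2) at ZT12.5 and 19.3 to 22.9 FPKM (median 20.3) at ZT0.5, a difference of 0.27 ± 0.028 (SE; adjusted p = 1.66e-06) with overlap. Scap was at 7.20 to 8.24 FPKM (median 7.50) and 5.91 to 6.73 FPKM (median 6.13), a difference of 0.36 ± 0.039 (SE; adjusted p = 2.7e-06) with none. Nr1h2 was at 5.87 to 7.90 FPKM (median 6.81) at ZT12.5 and 4.39 to 5.73 FPKM (median 5.36) at ZT0.5, also without overlap, at 0.43 ± 0.06 (SE; adjusted p = 3.19e-05). Srebf1 was higher by 0.28 and Insig1 by 0.15, whereas Insig2 was lower, at -0.17. Insig1 was at 12.6 to 14.8 FPKM (median 14.2) at ZT12.5 and 12.8 to 13.9 FPKM (median 13.3) at ZT0.5.

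Among the enzymes of the thalamus the 2 directions mixed. Sc5d, a desaturase of the last steps, was at 6.07 to 7.10 FPKM (median 6.84) at ZT12.5 and 7.59 to 9.44 FPKM (median 8.33) at ZT0.5, a difference of -0.22 ± 0.031 (SE; adjusted p = 2.53e-05) without overlap. Idi1 was lower, at -0.44, as were Cyp51 at -0.20, Ggps1 at -0.10 and the storage enzyme gene Soat1 at -0.19. Tm7sf2 was higher by 0.39, Mvk by 0.39, Cyp46a1 by 0.34, Mvd by 0.30, Lss by 0.26, Pmvk by 0.17, Dhcr7 by 0.16, Abcg1 by 0.16 and Fdps by 0.14. Hmgcs1 was at 30.5 to 35.9 FPKM (median 34.9) at ZT12.5 and 35.2 to 43.4 FPKM (median 37.6) at ZT0.5 and was not called, at -0.083 ± 0.033 (SE; adjusted p = 0.0531). Without rescaling 8 genes were higher and 9 lower; with WT mice alone 9 were higher and 3 lower, and with Sleepy mice alone 4 and 4. Of the other lists, 1 of 12 further cholesterol genes was higher and 3 lower, 6 of 17 fatty acid genes higher and 5 lower, and 2 of 10 isoprenoid branch genes lower. Of 8 endothelial markers 7 were lower at ZT12.5 and 1 higher. They summed to 33.4 to 39.9 FPKM at ZT12.5 and 43.5 to 52.5 FPKM at ZT0.5 in WT thalamus, and to 32.5 to 36.1 and 41.4 to 48.0 FPKM in Sleepy thalamus, without overlap in either genotype. Of 12 myelin markers 4 were lower and 1 higher, with sums of 607 to 769 FPKM at ZT12.5 and 905 to 975 FPKM at ZT0.5 in Sleepy thalamus, without overlap, and 893 to 935 and 790 to 1010.0 FPKM in WT thalamus, with overlap. Blood genes were higher in 4 of 5, and the part of these markers was not tested.

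**Figure D4:**
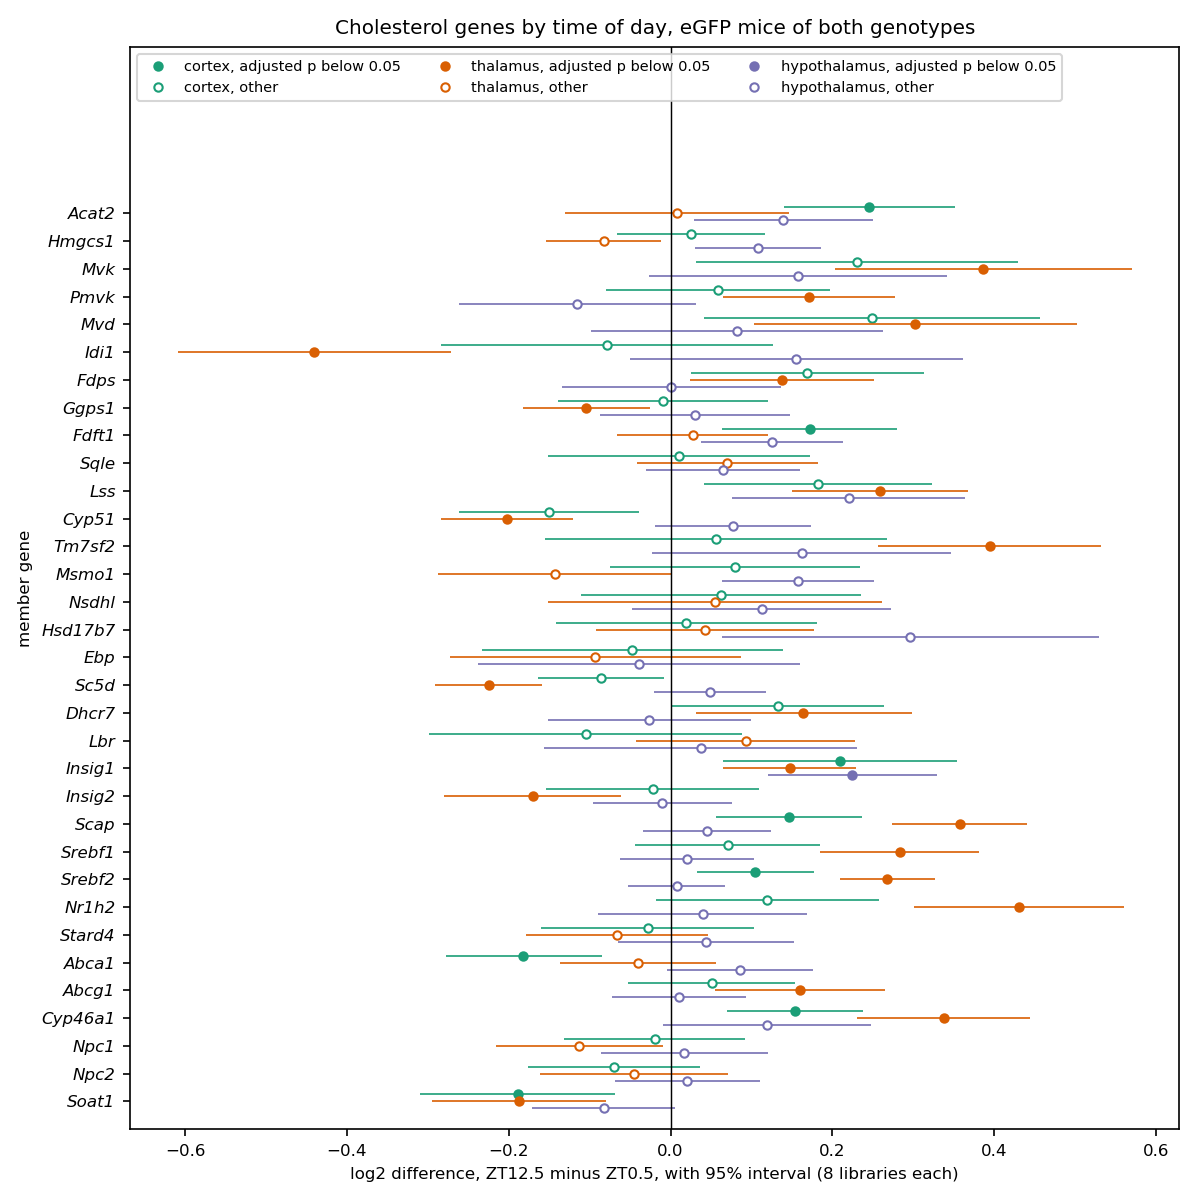
Points give the log2 difference between ZT12.5 and ZT0.5 of each of the 33 genes in cortex, thalamus and hypothalamus of eGFP mice of both genotypes, with 95% intervals from 8 libraries at each time; filled points have an adjusted p under 0.05. Thalamus holds 20 filled points on both sides of 0, cortex 8 and hypothalamus 1.

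In cortex, 6 of the 33 genes were higher at ZT12.5 and 2 lower, with 10.3% of 16206 genes called higher and 8.29% lower. Acat2 was at 5.12 to 6.26 FPKM (median 5.69) at ZT12.5 and 4.50 to 6.01 FPKM (median 5.08) at ZT0.5, a difference of 0.25 ± 0.049 (SE; adjusted p = 0.00263). Abca1 was at 2.50 to 3.38 FPKM (median 2.88) and 2.96 to 4.09 FPKM (median 3.55), lower at ZT12.5 with -0.18 ± 0.045 (SE; adjusted p = 0.00989). Cyp46a1 was at 32.1 to 40.5 FPKM (median 37.6) at ZT12.5 and 31.2 to 37.4 FPKM (median 36.4) at ZT0.5, a difference of 0.15 ± 0.039 (SE; adjusted p = 0.0117). The groups overlapped for all 8 called genes. Scap was higher by 0.15, Insig1 by 0.21, Fdft1 by 0.17 and Srebf2 by 0.10, and Soat1 was lower, at -0.19. Srebf2 was at 19.0 to 23.4 FPKM (median 21.5) at ZT12.5 and 18.9 to 23.0 FPKM (median 21.2) at ZT0.5, and Insig1 at 7.97 to 12.0 FPKM (median 9.09) and 7.64 to 10.1 FPKM (median 8.14). Hmgcs1 was not called, at 0.026 ± 0.042 (SE; adjusted p = 0.719). These rises depended on the rescaling, since without it none of the 33 was higher and 4 were lower, and with WT mice alone none was called. Of the cortex markers, 5 of 8 endothelial genes were lower and 1 higher, 5 of 12 myelin genes were lower, 4 of 10 astrocyte genes were lower and 1 higher, and 3 of 5 blood genes were higher; their part was not tested. The endothelial sums were 26.1 to 27.5 FPKM at ZT12.5 and 33.5 to 38.4 FPKM at ZT0.5 in WT cortex, and 23.2 to 26.9 and 28.2 to 33.2 FPKM in Sleepy cortex, without overlap. In hypothalamus Insig1 alone was called, with 2.57% of genes called and 1.43% called higher. It was at 14.6 to 18.5 FPKM (median 16.7) at ZT12.5 and 12.9 to 15.2 FPKM (median 14.2) at ZT0.5, a difference of 0.22 ± 0.048 (SE; adjusted p = 0.0172), while Hmgcs1 was at 0.11 and Srebf2 at 0.0075.

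Last, the regions were compared in WT mice with eGFP, 8 libraries each; whether the regions came from the same animals is not given. By mean level in thalamus, the 33 genes ran from Hmgcs1 at 37.1 ± 3.09 FPKM, Cyp46a1 at 35.7 ± 5.44 FPKM, Srebf2 at 22.2 ± 1.79 FPKM, Insig1 at 14.0 ± 0.534 FPKM and Abcg1 at 12.4 ± 1.11 FPKM down to Lss at 1.73 ± 0.17 FPKM (SD, n = 8). Hmgcs1 and Cyp46a1 lay within their spread of each other there. In cortex both led as well, at 37.5 ± 3.16 and 36.5 ± 3.03 FPKM, whereas in hypothalamus Cyp46a1 was at 18.5 ± 1.61 FPKM, below Hmgcs1 at 46.5 ± 4.36 FPKM and Srebf2 at 25.3 ± 1.62 FPKM. Region differences rest on the rescaling, which moved the median of all genes from -0.29 to -0.021 for cortex over thalamus, from 0.13 to 0.0053 for hypothalamus over thalamus and from -0.42 to -0.032 for cortex over hypothalamus.

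Cortex over thalamus gave 5 higher and 12 lower genes, with 28.4% of 16728 genes called higher and 31.3% lower. Srebf1 was at 4.01 to 4.59 FPKM (median 4.11) in cortex and 9.14 to 13.1 FPKM (median 10.9) in thalamus, the largest difference of the 33 at -1.08 ± 0.049 (SE; adjusted p = 1.17e-12). Pmvk, at 4.04 to 5.23 FPKM (median 4.45) and 8.76 to 10.8 FPKM (median 9.74), differed by -0.80 ± 0.05 (SE; adjusted p = 1.09e-10). The lysosomal exporters followed, with Npc1 at -0.69 ± 0.048 (SE; adjusted p = 5.87e-10) and Npc2 at -0.56 ± 0.044 (SE; adjusted p = 3.23e-09). Npc1 was at 2.80 to 3.63 FPKM (median 3.39) in cortex and 5.72 to 7.66 FPKM (median 6.62) in thalamus, and Npc2 at 4.75 to 6.42 FPKM (median 5.03) and 8.75 to 10.7 FPKM (median 9.54). None of these 4 overlapped between regions. Abca1 was at -0.52, Lbr at -0.39, Nr1h2 at -0.32, Insig1 at -0.29, Abcg1 at -0.29, Soat1 at -0.23, Ggps1 at -0.21 and Insig2 at -0.21. Hmgcs1 at 0.30, Cyp46a1 at 0.33, Fdft1 at 0.30, Srebf2 at 0.24 and Msmo1 at 0.18 were called higher in cortex after rescaling, but without it none of the 33 was called higher and 27 were called lower, with Srebf2 at -0.052 and Msmo1 at -0.10. Beside them, all 12 myelin markers were lower in cortex, with sums of 227 to 252 FPKM in cortex and 893 to 935 FPKM in thalamus at ZT12.5, as were 15 of 17 fatty acid genes, with Scd2 at -0.80 and Scd1 at -1.17. Of 12 further cholesterol genes 3 were higher and 3 lower, among them Osbpl8 at 0.77 and Fdxr at -0.83. All 9 choroid plexus markers were lower in cortex too, and 7 of 10 microglia markers were higher. The part of myelin and the other markers in these differences was not tested.

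Hypothalamus over thalamus gave 9 higher and 12 lower genes, with 29.1% of 17206 genes called higher and 28.6% lower. Cyp46a1 was at 16.5 to 20.7 FPKM (median 18.8) in hypothalamus and 27.4 to 40.8 FPKM (median 38.2) in thalamus, a difference of -1.06 ± 0.068 (SE; adjusted p = 3.4e-10) without overlap. Hsd17b7, at 1.28 to 2.28 FPKM (median 1.87) in hypothalamus and 2.70 to 3.73 FPKM (median 2.97) in thalamus, was lower too, with -0.83 ± 0.092 (SE; adjusted p = 4.56e-07). Npc1, at 4.45 to 5.50 FPKM (median 5.22) in hypothalamus and 5.72 to 7.66 FPKM (median 6.62) in thalamus, followed with -0.51 ± 0.049 (SE; adjusted p = 8.66e-08). Also lower were Nr1h2 at -0.51, Pmvk at -0.45, Srebf1 at -0.32, Abcg1 at -0.31, Abca1 at -0.30, Mvd at -0.27, Tm7sf2 at -0.24, Lbr at -0.19 and Npc2 at -0.13. The synthesis genes Sqle at 0.42, Fdft1 at 0.42, Sc5d at 0.37, Fdps at 0.36, Msmo1 at 0.35, Acat2 at 0.31, Cyp51 at 0.27, Idi1 at 0.26 and Hmgcs1 at 0.19 were higher in hypothalamus. Sqle was at 6.53 to 8.67 FPKM (median 8.19) in hypothalamus and 4.94 to 6.95 FPKM (median 5.24) in thalamus. Insig1 and Srebf2 were not called, at 0.0048 and 0.065. Without rescaling, 16 genes were higher and 8 lower. All 12 myelin and 8 endothelial markers were lower in hypothalamus, as were 9 of 10 microglia, 9 of 13 neuron and 7 of 9 choroid plexus markers. The myelin sums were 442 to 528 FPKM in hypothalamus and 893 to 935 FPKM in thalamus at ZT12.5, and the part of these markers was not tested.

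Cortex over hypothalamus gave 5 higher and 18 lower genes, with 30.9% of 16970 genes called higher and 34.8% lower. Cyp46a1 was the member with the largest difference, 1.38 ± 0.057 (SE; adjusted p = 2.47e-13), and was higher in cortex without rescaling too, at 0.97. Hsd17b7 was higher as well, at 0.71, and Nr1h2 at 0.18, Srebf2 at 0.16 and Hmgcs1 at 0.10 were called higher. Without rescaling these 3 were lower in cortex, at -0.22, -0.24 and -0.31. Srebf1 was at 4.01 to 4.59 FPKM (median 4.11) in cortex and 8.36 to 10.6 FPKM (median 9.78) in hypothalamus, a difference of -0.78 ± 0.043 (SE; adjusted p = 2.12e-11). Sc5d was at 5.30 to 7.45 FPKM (median 6.01) in cortex and 9.59 to 12.6 FPKM (median 10.5) in hypothalamus, and Npc2 at 4.75 to 6.42 FPKM (median 5.03) and 8.83 to 10.7 FPKM (median 9.46). None of these 3 overlapped between regions, with Sc5d at -0.43 and Npc2 at -0.44. Sqle at -0.38, Pmvk at -0.36, Insig2 at -0.34, Cyp51 at -0.33 and Insig1 at -0.31 were lower too. The other 10 lower genes, Acat2, Soat1, Abca1, Ggps1, Npc1, Idi1, Dhcr7, Fdps, Msmo1 and Fdft1, lay between -0.29 and -0.13. Without rescaling, 2 genes were higher and 31 lower. All 12 myelin markers were lower in cortex, with sums of 227 to 252 FPKM in cortex and 442 to 528 FPKM in hypothalamus at ZT12.5, as were 7 of 10 astrocyte markers, whereas all 10 microglia and 8 endothelial markers were higher. Their part in the differences was not tested.

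**Figure D5:**
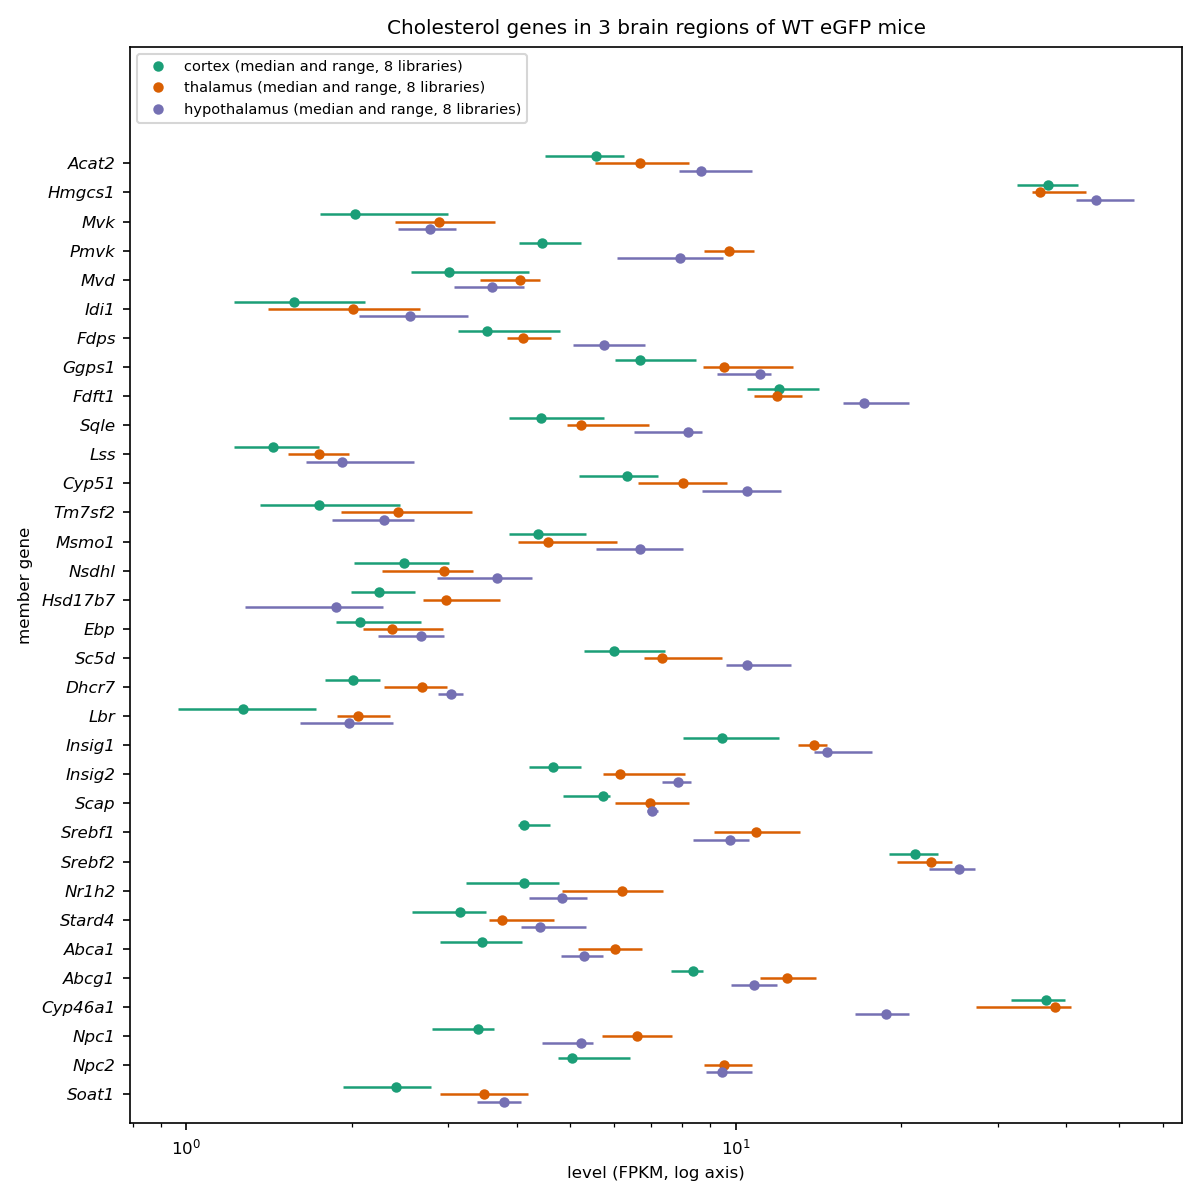
Points give the median level in FPKM (log axis) of each of the 33 genes in cortex, thalamus and hypothalamus of WT eGFP mice, and lines the range of 8 libraries over both times. Hmgcs1, Cyp46a1 and Srebf2 have the highest levels; Srebf1, Pmvk, Npc1 and Npc2 lie lower in cortex than in thalamus, and Cyp46a1 lies lower in hypothalamus than elsewhere.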

How the data were processed

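Libraries of poly(A) RNA, 4 biological replicates in each of 30 groups, were sequenced. CASAVA 1.9, STAR 2.6.1a, featureCounts, edgeR 3.28.1 and the build GRCm38 were used, per the submitters' processing notes, which give them here without roles; the annotation, strand setting and treatment of shared reads are not given in the sources used here. The values the authors deposited are RPKM for 36 libraries (WT mice with mCherry, HDAC4CA or CREB) and FPKM for 84, per the file headers, and the sets were never compared. From 49585 rows, 26 symbols turned into dates and 93 repeated rows were left out.

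Values were scaled by a trimmed mean of log ratios (TMM; 30% and 5% trims), and log2(value + 0.1) was tested with limma 3.58.1 in R 4.3.3 (mean trend, robust), with p adjusted by Benjamini-Hochberg across every gene tested and calls made at 0.05. Fold changes on this scale understate changes of low genes. Genes needed a mean of 10 reads recovered from exon lengths, or a mean value of 1 where no length was known. Of low values, up to 20 reads, 94.3 to 95.7% came out whole to within 0.1 read, and voom on these reads was an alternative. Recovered reads per library ran from 11.13 M to 24.77 M.

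Fits held the groups compared; genotype and time of day were each a term in the other's fit. Alternatives were no scaling, no filter, voom, the replicate number as a block, each library left out and, for time, each genotype alone. Same-numbered libraries deviated together only in WT cortex. Correlations of their deviations there were 0.125 to 0.648 for HDAC4CA against mCherry and 0.129 to 0.709 for CREB against mCherry. For HDAC4CA against CREB they were 0.185 to 0.657. Replicate 4 stood apart from the other replicates in these groups, so the correlations do not show pairing of the others by number. The scripts were checked on simulated data. From the list of further cholesterol genes, 2 are not reported here and are left out of its counts. The 33 genes, the other lists and the tests were chosen with earlier results of these data known. Every called member was named, with library values for the up to 4 of smallest adjusted p and for Srebf2, Insig1 and Hmgcs1; where none was called, the 2 with the smallest p were named; of other lists, up to 4 called genes. Promoters are from RefSeq, and exon lengths from GENCODE M21.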

Additional observations from a re-analysis of the deposited data

Results flagged for a closer look

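Hmgcs1 in Sleepy HDAC4CA hypothalamus at ZT12.5 had 1 library, replicate 3, far from the other 3 of its group, at 63.0 FPKM against 43.2 to 45.2 FPKM. The gap was 0.898 of the group's range, above Dixon's 95% critical value for 4 samples. The same library was the highest of its group for Insig1 and Srebf2. Srebf2 in Sleepy eGFP hypothalamus at ZT12.5 had its replicate 1 apart from the others, at 23.8 FPKM against 24.2 to 24.3 FPKM, a gap of 0.841 of a narrow range. These were 2 of 120 sets of 4 libraries examined, and chance alone marks about 1 in 20. Nsdhl was picked out because its HDAC4CA difference in Sleepy cortex exceeded that in Sleepy thalamus by 0.62 ± 0.12 (SE; adjusted p = 0.00266) on the log2 scale in a limma test of the difference itself, with 4 libraries in each of the 4 groups. Nsdhl alone of the 33 genes was called in that test. Over all genes 9.10% were called and 4.12% called higher, so this call does not set the cholesterol genes apart.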

How the results depend on the processing

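Values are numbers of the 33 genes called, each under the alternative first and then, after "for", as reported above. Without rescaling, HDAC4CA against mCherry in WT thalamus gave 4 for 8, HDAC4CA in Sleepy cortex at ZT0.5 gave 4 for 7, CREB in WT thalamus 2 for 4, HDAC4CA against CREB 0 for 1 in WT cortex and 6 for 10 in Sleepy thalamus, ZT12.5 against ZT0.5 in cortex 4 for 8, cortex over thalamus 27 for 17, and the HDAC4CA difference in cortex minus hypothalamus 1 for 0. Without the filter on low values the numbers were 5 for 8 in WT thalamus and 0 for 7 in Sleepy cortex at ZT0.5 with HDAC4CA, 2 for 4 in WT and 0 for 4 in Sleepy thalamus with CREB, 0 for 1 between HDAC4CA and CREB in WT cortex, and 5 for 8 between times in cortex. With voom they were 2 for 0 in WT cortex and 13 for 7 in Sleepy cortex at ZT0.5 with HDAC4CA, 1 for 0 in Sleepy cortex and 7 for 4 in Sleepy thalamus with CREB, 2 for 1 between HDAC4CA and CREB in WT cortex, and 3 for 1 between times in hypothalamus. With the replicate block, HDAC4CA in WT cortex gave 1 for 0. In WT thalamus the block gave 2 for 4 with CREB. No other number moved by over 1.5 times under the block. Without the number 4 libraries of both groups, HDAC4CA against CREB in WT cortex gave 0 for 1. Between times, WT mice alone gave 0 for 8 in cortex, 12 for 20 in thalamus and 0 for 1 in hypothalamus, and Sleepy mice alone gave 1 for 8 in cortex and 8 for 20 in thalamus. Leaving out each library in turn gave 0 to 15 for HDAC4CA in WT cortex, 5 to 10 in WT thalamus and 2 to 7 in Sleepy cortex at ZT0.5, 2 to 4 and 0 to 3 for CREB in WT and Sleepy thalamus, 0 to 13 for HDAC4CA against CREB in WT cortex, 5 to 9 and 1 to 2 between times in cortex and hypothalamus, and 1 to 2 and 0 to 5 for the HDAC4CA difference in cortex minus thalamus and minus hypothalamus. Of 2286 alternatives of named values, 2095 kept direction and side of the threshold, 150 lost and 24 gained the call, and 17 changed sign. The sign changes were Hmgcs1 between times in cortex (-0.063 without rescaling, -0.0045 to 0.053 leaving out each library), Srebf2 between times in hypothalamus (-0.011 in WT mice alone, -0.0060 to 0.022 leaving out each library), Srebf2 in cortex over thalamus (-0.052 without rescaling), Insig1 in hypothalamus over thalamus (-0.018 to 0.037 leaving out each library), Srebf2 (-0.24) and Hmgcs1 (-0.31) in cortex over hypothalamus without rescaling, and Srebf2 in the HDAC4CA difference in cortex minus thalamus (0.030 without rescaling, -0.039 to 0.015 leaving out each library). The cause of these moves was not tested. With 4 libraries a group, differences could be missed, those among low genes included, and p-values measure the spread of these libraries. In simulated data, the fit of HDAC4CA over mCherry in WT thalamus called 2.04% of genes changed by 0.3 and 66% changed by 0.6. False calls were 7.19% of its calls. The fit of the HDAC4CA difference in Sleepy cortex minus thalamus called 0% and 10%. The simulation gave every gene the same assumed spread between libraries, which was not matched to that of the 33 genes. In the real limma fit of WT thalamus, Srebf2 was called at 0.24 ± 0.039 (SE; adjusted p = 0.00492). Fdft1 was not called there, at 0.24 ± 0.079 (SE; adjusted p = 0.0963). The simulated shares therefore do not measure how often differences of the 33 genes were missed.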
